A study of Mus musculus with 12 samples.

Results

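This account follows muscle progenitors of the mouse trunk over 1 day of development, from embryonic day 9.5 to embryonic day 10.5 (E9.5 and E10.5), across all genes that the array measured. It rests on 4 of the 12 arrays of the series, chosen by their sample titles: trunk progenitors at E10.5 (2 arrays) and trunk progenitors at E9.5 (2 arrays). All 4 came from ICR embryos of the genotype Myf5Cre;RosaYFP, and the labels name no treatment. Both groups therefore share the Cre, which Myf5 drives, and the yellow fluorescent reporter (YFP) that Cre switches on for good. Trunk tissue was dissociated, the YFP+ cells were sorted, and their RNA was amplified and hybridised as biotinylated cRNA. The sort collects every trunk cell whose history includes Cre activity, whether or not it still expresses Myf5, so that a group may hold cells in several states. Nothing in the labels tells if the pair of arrays of a stage came from separate embryos, litters or pools, so p-values here measure just the spread between these samples, which may be technical. The other 8 arrays served to estimate that spread. They also counted in the filter that set which genes were tested, and in the choice of probe set for each gene.

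Trunk skeletal muscle arises from the somites, blocks of mesoderm that form in succession from the presomitic mesoderm at the tail end. Cells of the dorsal somite, the dermomyotome, carry the transcription factors Pax3, Pax7 and Meox1, and their descendants enter the myotome as Myf5 and Myod1 commit them to muscle. Myog then drives differentiation together with Mef2 factors: the cell leaves the cycle, fuses with its neighbours and builds sarcomeres, the contractile units of actin, myosin, troponin and titin.

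The median signal lay between 108.6 and 110.4 intensity units on the 12 arrays. Over probe sets, the 2 arrays correlated at Pearson r = 0.981 within E10.5 and at 0.969 within E9.5, against 0.909 to 0.952 between arrays of different stages, a description across genes that are not independent replicates. E9.5 replicate 1 stood farthest from the E10.5 arrays, and it read lower than E9.5 replicate 2 for many of the muscle genes below. Of the defining markers of myogenic cells, Myf5, Myog and Pax3 lay above the array median on all 4 arrays, Myod1 and Met on both E10.5 arrays and neither E9.5 array, Pax7 on 1 array of each stage, and Eya1 stayed below the filter on low signal. The arrays also differed in Xist, the RNA that coats the inactive X chromosome in female cells: it read 82.6 and 4132 on the E10.5 arrays, against 5833 and 6329 on the E9.5 arrays (log2 difference −3.38 ± 1.56, SE, adjusted p = 0.234). E10.5 replicate 1 thus had little Xist where the other 3 arrays had much. It also had the highest signal of the Y-linked genes Eif2s3y (862 and 488 at E10.5, against 260.3 and 486 at E9.5) and Kdm5d (633 and 311 at E10.5, against 197 and 309 at E9.5). The spread in Actb probe sets from the 3′ to the 5′ end, a sign of RNA or amplification quality, was 5.70 and 5.74 log2 units at E10.5 and 4.86 and 5.48 at E9.5. That of Gapdh was 5.42 and 5.58 at E10.5 and 5.84 and 5.34 at E9.5, with the stages overlapping. The part of these differences in the results was not tested, and counts are given below without each array in turn.

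Of 7721 genes tested with limma, 556 (7.2%) passed a Benjamini-Hochberg adjusted p of 0.05 and are called changed. At E10.5, 422 genes (5.47%) were higher and 134 (1.74%) were lower. Before adjustment, 1670 of the 7721 genes had a limma p under 0.05. In all 556 called genes the stages did not overlap. Where a called gene is described below as without overlap, that adds nothing to its call. Of the higher ones, 322 differed by at least 1 on the log2 scale and 113 by at least 2, while 58 and 10 of the lower ones did. The median difference was 1.45 among genes called higher, −0.93 among genes called lower and −0.00 over all genes tested. With signals below the array median raised to it, 437 genes (5.66%) were called, 285 higher and 152 lower (65.2% higher, against 75.9%). The number of calls depended on single arrays: 159 genes (2.06%) passed without E9.5 replicate 1, 474 (6.14%) without E9.5 replicate 2, 105 (1.36%) without E10.5 replicate 1, 233 (3.02%) without E10.5 replicate 2, and 94 (1.22%) when E10.5 replicate 1 was left out together with a head array of low Xist signal. All 556 kept their direction with any 1 array left out, and 98 (88 higher and 10 lower) kept their call in all 4 such fits. In such a fit the lone array of a stage is assumed to vary like the other groups. These 4 fits are among 17 alternative settings, and an adjusted p given below as "up to" a value is the highest over the alternatives in which that gene was tested. In bulk RNA of sorted cells, fewer cells of a type and less RNA per cell cannot be told apart.

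**Figure D1:**
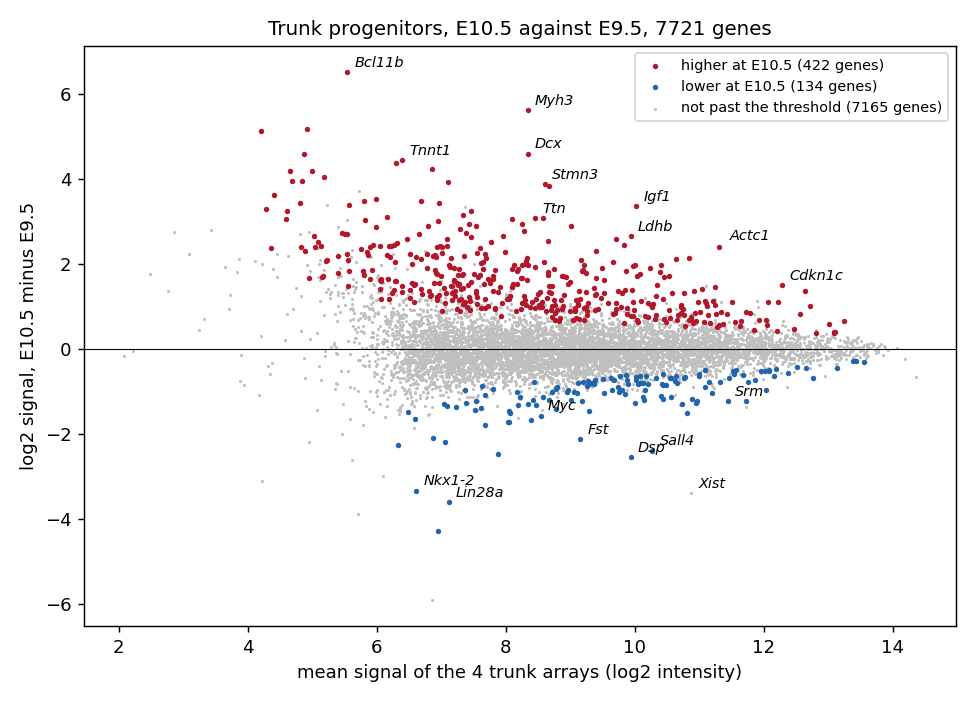
Difference in log2 signal between trunk progenitors at E10.5 and E9.5 (vertical axis) against the mean log2 intensity of the 4 arrays (horizontal axis), 1 point per gene. The 422 genes called higher reach up to 6.50 log2 units, while the 134 called lower lie mostly within 2 units of 0; Xist, low on a single array, is not among them.

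The largest difference of a gene above the array median on all 4 arrays was in Igf1, a secreted growth factor of muscle and other mesoderm. Igf1 read 3613 and 3085 on the E10.5 arrays, against 347 and 303 on the E9.5 arrays, a log2 difference of 3.36 ± 0.23 (SE, n = 2 each; limma adjusted p = 1.52e-05). Both E10.5 arrays lay far above both E9.5 arrays. Ldhb, the lactate dehydrogenase subunit of oxidative tissue, read 2413 and 2529 at E10.5, against 321 and 475 at E9.5 (log2 2.66 ± 0.23, adjusted p = 8.5e-05). Oxct1, the mitochondrial enzyme that lets cells burn ketone bodies, stood at 4047 and 3658 at E10.5, against 822 and 928 at E9.5 (log2 2.14 ± 0.16, adjusted p = 1.9e-05). Each stage's arrays lay close together for both enzymes and the stages did not overlap. Limch1, an activator of non-muscle myosin, was higher as well (3379 and 3235 at E10.5, against 755 and 775 at E9.5, log2 2.11 ± 0.18). Epha3, Isl1, Prrx1 and Actc1, also among the 10 largest rises with signal at both stages, are described with their lists. Gpm6b, a membrane glycoprotein of neurons and glia, and 6330403K07Rik were the remaining ones (log2 2.14 ± 0.29 and 2.30 ± 0.28). Igf1, Ldhb, Oxct1, Limch1, Gpm6b and 6330403K07Rik kept their call in every alternative setting in which they were tested. Bcl11b, a zinc finger repressor named here after its value was seen, had the largest fitted difference of all genes (6.50 ± 0.38, adjusted p = 6.8e-06). It read 433 and 457 at E10.5, against 7.92 and 3.03 at E9.5, where both arrays lay below the median probe set; with the E9.5 arrays raised to that median the difference is at least 4.07-fold.

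Of the 14 tested genes among 24 listed myogenic regulatory factors and cofactors, 3 rose (21.4%, against 5.47% of all genes tested) and 0 fell, and the median difference was 0.02. Myf5, the determination gene that also drives the Cre, read 1117 and 1150.2 on the E10.5 arrays, against 999 and 1305 on the E9.5 arrays (log2 −0.01 ± 0.21, limma adjusted p = 0.986), and the stages overlapped. Myod1, the other determination factor, read 226 and 334 at E10.5, against 70.1 and 73.5 at E9.5 (log2 1.94 ± 0.30, adjusted p = 0.00292). It was above the median probe set on both E10.5 arrays and below it on both E9.5 arrays, so the rise is given as at least 2.51-fold. Myog, the differentiation factor, read 607 and 689.7 at E10.5, against 112 and 243 at E9.5 (log2 1.97 ± 0.36, adjusted p = 0.00672). Mef2c, its partner in activating muscle genes, read 1104 and 1141 at E10.5, against 214 and 442 at E9.5 (log2 1.87 ± 0.29, adjusted p = 0.00303). For both genes the 2 E10.5 arrays lay within a narrow band above both E9.5 arrays, and E9.5 replicate 1 was the lower of its stage. The remaining partners did not pass the test, among them Mef2a (log2 0.44 ± 0.22), Tcf12 (0.05 ± 0.09) and Srf (−0.07 ± 0.32). Myf6, the late determination gene, stayed below the filter on low signal (25.3 and 21.6 at E10.5, against 58.4 and 74.0 at E9.5). Myod1 kept its call in all 17 alternative settings; Myog lost it without E9.5 replicate 1, E10.5 replicate 1 or E10.5 replicate 2 (adjusted p between 0.00202 and 0.0816 over the 17), and Mef2c only when E10.5 replicate 1 and a head array of low Xist signal were left out together (adjusted p up to 0.0695).

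**Figure D2:**
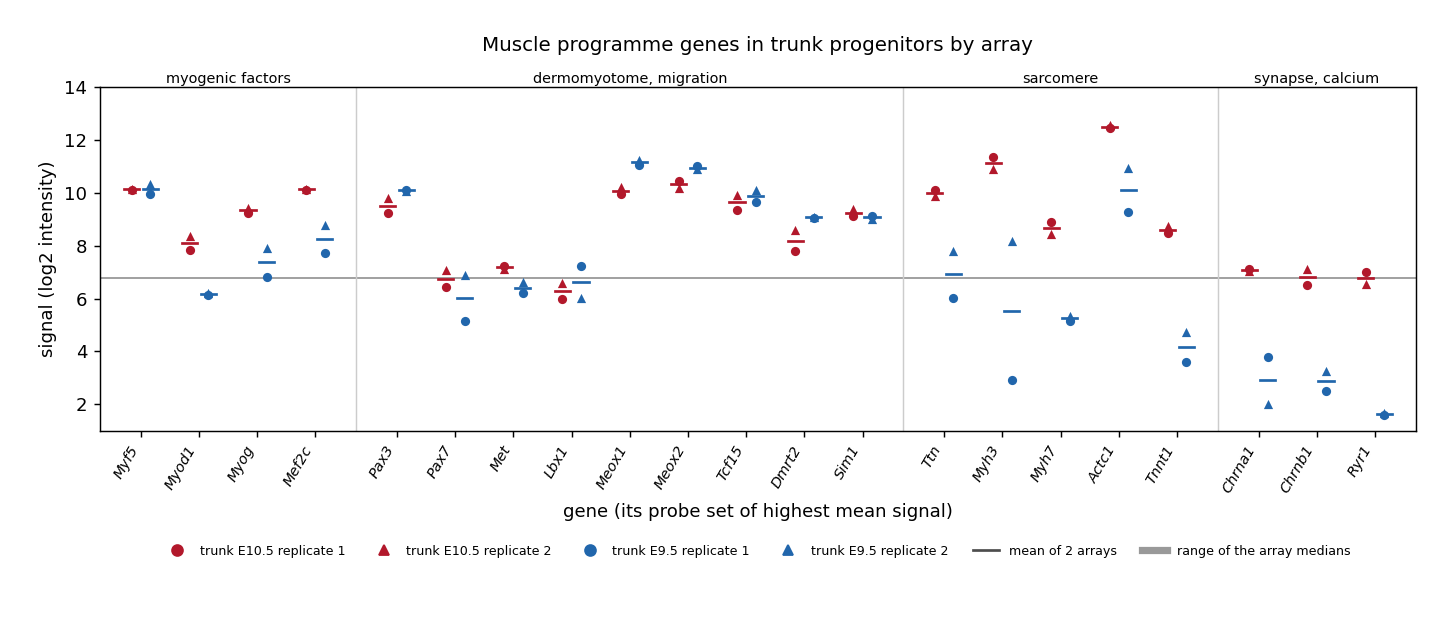
Log2 intensity of muscle programme genes on each trunk array (circles are replicate 1, triangles replicate 2, bars the mean of 2 arrays), E10.5 in red to the left of E9.5 in blue, with the array medians as a grey line. Myf5 overlaps between stages, Myod1, Myog, Mef2c and the sarcomere genes sit higher at E10.5, and most dermomyotome regulators overlap or lie close.

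Of 24 listed genes of the dermomyotome and of migrating progenitors 20 were tested, 3 rose (15%, against 5.47% of all genes tested) and 0 fell, with a median difference of 0.12. Pax3, the regulator of dermomyotome and of progenitors bound for the limb, read 602 and 899 on the E10.5 arrays, against 1118 and 1083 on the E9.5 arrays (log2 −0.58 ± 0.33, limma adjusted p = 0.340). Meox1, a homeobox gene of early somites, read 992 and 1189.7 at E10.5, against 2155 and 2465 at E9.5 (log2 −1.09 ± 0.33, adjusted p = 0.0688); the stages did not overlap, and it passed only when the 4 arrays were fitted alone. Meox2, its paralog, read 1409 and 1169 at E10.5, against 2094 and 1899 at E9.5 (log2 −0.64 ± 0.22, adjusted p = 0.105). These 3 genes had their higher readings at E9.5 but did not pass the test. Pax7, which keeps later muscle stem cells, read 86.1 and 136 at E10.5, against 35.7 and 120.0 at E9.5 (adjusted p = 0.517). Met, the receptor that guides progenitors into the limb, read 152 and 140.1 at E10.5, against 73.4 and 97.7 at E9.5 (adjusted p = 0.431), and Lbx1, a marker of those migrating cells, 63.2 and 97.2 at E10.5, against 149.5 and 65.8 at E9.5 (adjusted p = 0.810). All 3 lay around the median probe set at both stages, where the array gives little resolution. Tcf15, which keeps somites epithelial, Dmrt2 and Sim1 likewise did not pass (adjusted p = 0.786, 0.399 and 0.853). The 3 that rose were Msc (at least 2.34-fold, adjusted p = 0.00168), a repressor of the basic helix-loop-helix class, and the T-box genes Tbx1 (at least 1.65-fold, adjusted p = 0.00536) and Tbx15 (at least 1.75-fold, adjusted p = 0.0382). Msc lay at 309 and 212 at E10.5, against 45.0 and 71.5 at E9.5. Tbx15 rested on E10.5 replicate 1 (333 and 74.2 at E10.5, against 43.1 and 28.3 at E9.5) and lost its call in 10 of 16 alternatives (adjusted p between 0.00382 and 0.383); Tbx1 lost it without E9.5 replicate 1 or E10.5 replicate 1 (between 0.00500 and 0.117).

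Sarcomere and contractile genes gave the largest list median of all 36 lists, 2.16 log2 units over 33 tested members of 54 listed, against −0.00 over all genes. Their mean log2 signal was 7.94 at E10.5 and 5.88 at E9.5, the latter below the array medians. The filter kept members above the median on any 2 of the 12 arrays and left out those dim throughout. The median and rank of this list, and of the others, depend on that choice. Of the 33, 17 rose (51.5%, against 5.47% of all genes tested) and 0 fell. Ttn, the giant protein that spans the sarcomere, read 1104 and 935 on the E10.5 arrays, against 65.7 and 223 on the E9.5 arrays (log2 3.07 ± 0.46, limma adjusted p = 0.00238), at least 6.53-fold higher. Myh3, the embryonic myosin heavy chain, read 2659 and 1937 at E10.5, against 7.47 and 288 at E9.5 (log2 5.61 ± 1.14, adjusted p = 0.0120), at least 12.8-fold higher. Actc1, the cardiac actin that embryonic skeletal muscle uses first, read 5595 and 6067 at E10.5, against 629 and 1953 at E9.5 (log2 2.39 ± 0.41, adjusted p = 0.00499). The stages were apart in all 3, and E9.5 replicate 1 gave the lowest reading each time. Myh7, the slow myosin, read 479 and 351 at E10.5, against 35.9 and 40.8 at E9.5 (at least 3.75-fold, adjusted p = 0.00192). Tnnt1, the slow troponin T, read 354 and 434 at E10.5, against 12.2 and 26.6 at E9.5 (at least 3.59-fold, adjusted p = 0.00327). For both, all E9.5 readings lay below the median probe set. Among members named after their values were seen, the troponins Tnnc1, Tnni1 and Tnnt2 rose by at least 2.36-, 2.57- and 3.38-fold, the Z-disc actinin Actn2 by at least 3.23-fold, skeletal actin Acta1 by at least 3.44-fold and the light chain Mylpf by at least 2.57-fold (adjusted p from 0.00966 to 0.0426). The adult myosin Myh1 and the perinatal myosin Myh8 also passed (log2 2.31 ± 0.50 and 3.44 ± 0.68), but Myh1 stayed below the median probe set on all 4 arrays and Myh8 on 3, and neither has a fold bound. The 16 members that did not pass included the fast troponin Tnnc2 (log2 3.71 ± 1.04, adjusted p = 0.0519), the actin-binding tropomyosins Tpm1 (0.15 ± 0.24) and Tpm2 (0.58 ± 0.19), smooth muscle actin Acta2 (0.86 ± 0.30) and the ventricular light chain Myl3 (−0.13 ± 0.55).

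The summed signal of the 33 contractile genes was 19020 and 18529 on the E10.5 arrays, against 4543 and 7533 on the E9.5 arrays. The 17 calls became 6 without E9.5 replicate 1, 18 without E9.5 replicate 2, 3 without E10.5 replicate 1 and 5 without E10.5 replicate 2, 1 when E10.5 replicate 1 was left out together with a head array of low Xist signal, and 8 with signals raised to the array median. Ttn, Myh7 and Tnnt1 kept their calls with any 1 array left out, Actc1 lost its call without E10.5 replicate 1 (adjusted p between 0.000198 and 0.0593 over 17 alternatives), and Myh3 without either E10.5 array (between 4.79e-06 and 0.174).

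Genes of the neuromuscular synapse, calcium release and cell fusion were mostly too dim to follow. Of 40 listed genes 18 were tested, 5 rose (27.8%, against 5.47% of all genes tested) and 0 fell, and the median difference was 0.74. Chrna1, the alpha subunit of the muscle acetylcholine receptor, read 141 and 131 on the E10.5 arrays, against 13.9 and 4.07 on the E9.5 arrays (log2 4.18 ± 0.83, limma adjusted p = 0.0111). Its beta subunit Chrnb1 read 91.5 and 139.9 at E10.5, against 5.62 and 9.44 at E9.5 (log2 3.96 ± 0.51, adjusted p = 0.000917). Ryr1, the calcium release channel of the sarcoplasmic reticulum, read 129 and 93.2 at E10.5, against 3.05 and 3.19 at E9.5 (log2 5.13 ± 0.78, adjusted p = 0.00238). In all 3 the E9.5 readings lay near the bottom of the scale and the E10.5 readings near the median probe set, so the large log2 values rest on signals too low to measure, and the bounds are only 1.24-fold for Chrna1 and 1.13-fold for Chrnb1. With signals raised to the array median 0 of the 5 passed; 3 passed without E9.5 replicate 1, 2 without E9.5 replicate 2, 1 without E10.5 replicate 1 and 2 without E10.5 replicate 2. The calcium pump Atp2a1 passed in the main test and in none of the 4 leave-one-out fits (adjusted p = 0.0370; between 0.0230 and 0.994 over 16 alternatives), and so did brain creatine kinase Ckb (adjusted p = 0.0476; between 0.0166 and 0.236), a member named after its value was seen. Casq2 (log2 2.05 ± 0.62, adjusted p = 0.0683), a calcium store protein, and Chrng (1.47 ± 0.47, adjusted p = 0.0862), the fetal receptor subunit, did not pass.

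The promoters of contractile and synaptic genes were searched for the elements that muscle regulators are known to bind. Myogenic factors bind the E-box CANNTG, of which CAGCTG is a preferred form, Mef2 factors bind the MEF2 box, and Srf binds the CArG box. Of the 22 members of both lists called higher, 21 had a RefSeq promoter, 250 bases before to 50 bases after the start (assembly GRCm38.p6; both strands searched). CAGCTG was present in 9 of the 21 (42.9%), against 1072 of 6289 tested genes with a promoter (17.0%) and 16.3% of all 32851 promoters in the table. The share was 34.9% among the 43 tested members of both lists with a promoter, called or not, 36.4% among 11 neuronal genes called higher, 26.2% among all genes called higher and 13.8% among those called lower. The TATA box TATAAA, a general promoter element, was in 47.6% of the 21 and 8.78% of tested genes. Any CANNTG, which includes CAGCTG, occurred in 85.7% of the 21 and in 66.0% of tested genes, a MEF2 box in 2 of the 21 and 0.461% of tested genes, and a CArG box in 2 of the 21 and 1.70% of tested genes. A gene counts as holding a motif if any of its promoters does, and a match is a description of letters, not evidence of binding. The 200 bases before the start are shown for 3 of these genes, chosen because they carry the different elements, 5′ to 3′ on the minus strand of chromosome 2. Capitals mark E-boxes in Chrna1, a MEF2 box and an E-box in Ttn, and a CArG box in Actc1.
Chrna1 (chr2:73580339-73580538): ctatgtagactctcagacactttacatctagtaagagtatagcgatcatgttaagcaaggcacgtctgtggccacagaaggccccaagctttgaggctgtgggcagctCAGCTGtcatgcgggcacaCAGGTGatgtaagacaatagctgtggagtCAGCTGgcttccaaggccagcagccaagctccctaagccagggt
Ttn (chr2:76982548-76982747): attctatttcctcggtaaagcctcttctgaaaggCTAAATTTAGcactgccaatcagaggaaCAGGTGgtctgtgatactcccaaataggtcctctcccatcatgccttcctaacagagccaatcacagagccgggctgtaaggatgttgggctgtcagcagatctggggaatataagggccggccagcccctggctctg
Actc1 (chr2:114052876-114053075): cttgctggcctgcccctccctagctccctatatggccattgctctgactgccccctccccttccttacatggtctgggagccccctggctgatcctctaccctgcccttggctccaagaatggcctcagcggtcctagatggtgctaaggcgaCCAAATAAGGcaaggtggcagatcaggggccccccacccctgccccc
The E-boxes of Chrna1 begin 92, 73 and 44 bases before its start, the MEF2 box and E-box of Ttn 166 and 138 bases before, and the CArG box of Actc1 47 bases before. The genes behind these windows are those described above at 141 and 131, 1104 and 935 and 5595 and 6067 intensity units at E10.5, against 13.9 and 4.07, 65.7 and 223 and 629 and 1953 at E9.5.

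Several genes of the posterior growth zone and the early embryo were lower at E10.5. In the presomitic and segmentation list, 14 of 30 genes were tested, 0 rose and 3 fell (21.4%, against 1.74% of all genes tested). Nkx1-2, a homeobox gene of the tail bud, read 29.5 and 32.2 on the E10.5 arrays, against 329 and 292 on the E9.5 arrays (limma adjusted p = 0.00296), at least 2.82-fold lower. Cdx2, the caudal factor of axial elongation, read 27.5 and 49.3 at E10.5, against 133 and 232 at E9.5 (at least 1.60-fold lower, adjusted p = 0.0383). Dll1, the Notch ligand of the presomitic mesoderm that segmentation requires, read 361 and 400.0 at E10.5, against 969 and 816 at E9.5 (log2 −1.23 ± 0.27, adjusted p = 0.0198). All 3 had stages that did not overlap. Clock and boundary genes with other readings included Lfng (log2 −0.72 ± 0.92, adjusted p = 0.709), Mesp1 (−0.09 ± 0.35, 0.925) and Dll3 (−0.18 ± 0.31, 0.792), which did not pass. Among Hox genes, which give the axial levels their identity, 18 of 39 listed were tested and 1 passed. The called share was 12.5% of the 8 tested in paralog groups 1 to 4 and 0% of the 10 in groups 5 to 13, against 7.2% of all genes. The called gene was Hoxb1, an anterior paralog also active in the tail bud. It read 60.8 and 63.4 at E10.5, against 295 and 273 at E9.5 (at least 2.58-fold lower, limma adjusted p = 0.00980). None of the 10 tested members of paralog groups 5 to 13 passed limma's threshold, and their median difference was 0.11. In that set 0 had an unadjusted p under 0.05, against 1670 of all 7721 genes tested. Nkx1-2 kept its call with any 1 array left out, Dll1 and Hoxb1 only without E9.5 replicate 2 (adjusted p between 0.00942 and 0.210, and between 0.000150 and 0.120, over 17 alternatives), and Cdx2 in none of the 4 (between 0.0114 and 0.301).

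Of 28 listed early embryo and pluripotency genes 8 were tested, 0 rose and 3 fell (37.5%, against 1.74% of all genes tested). Lin28a, the RNA-binding protein that blocks maturation of the let-7 microRNAs, read 18.0 and 88.5 on the E10.5 arrays, against 531 and 436 on the E9.5 arrays, at least 4.37-fold lower (limma adjusted p = 0.00355). Sall4, a zinc finger factor of stem cells and posterior progenitors, read 414 and 710.3 at E10.5, against 3359.6 and 2389 at E9.5 (log2 −2.39 ± 0.26, adjusted p = 0.000453). Dnmt3b, the de novo DNA methyltransferase of the early embryo, read 938 and 1119.7 at E10.5, against 2433 and 2036 at E9.5 (log2 −1.12 ± 0.26, adjusted p = 0.0227). In each gene both E10.5 arrays lay below both E9.5 arrays. Its relative Dnmt3a read 815 and 745 at E10.5, against 329 and 555 at E9.5 (log2 0.87 ± 0.24, adjusted p = 0.0511), and passed only without E9.5 replicate 2; Hmga2, a chromatin protein of embryonic growth, had a log2 value of 0.15 ± 0.08 (adjusted p = 0.338). Lin28a and Sall4 kept their calls with any 1 array left out, and Dnmt3b only without E9.5 replicate 2 (adjusted p between 0.00960 and 0.216 over 16 alternatives). The strongest falls by the naming rule also included AI506816 (at least 4.94-fold), Ifitm1 (at least 4.85-fold), a membrane protein of the early mesoderm and germ line, and Rims2 (at least 3.43-fold), a vesicle docking protein, with adjusted p of 0.00206, 0.00225 and 0.00289. Fst, the secreted antagonist of activin, fell with them (226 and 335 at E10.5, against 914 and 1546 at E9.5, log2 −2.11 ± 0.41, adjusted p = 0.0103), a call lost without E9.5 replicate 2 or E10.5 replicate 1 (adjusted p up to 0.174).

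Among cell cycle genes, a pair of inhibitors rose and Myc fell, while few genes of the replication machinery passed. Cdkn1c, which encodes the CDK inhibitor p57, read 8505 and 8359.9 on the E10.5 arrays, against 2397 and 3704 on the E9.5 arrays (log2 1.50 ± 0.17, limma adjusted p = 0.000551). Cdkn1a, which encodes the inhibitor p21, read 1036 and 1163 at E10.5, against 177 and 531 at E9.5 (log2 1.84 ± 0.40, adjusted p = 0.0177). Myc, a transcription factor that drives growth, read 214 and 219 at E10.5, against 691 and 592 at E9.5 (log2 −1.56 ± 0.28, adjusted p = 0.00603). The stages did not overlap in any of the 3, and E9.5 replicate 1 was the lower E9.5 array for both inhibitors. These were the only 3 of 21 tested cyclin D, inhibitor and exit genes to pass (14.3%, against 7.2% of all genes tested). Cyclin D1, Ccnd1, had a log2 value of −0.41 ± 0.23 and Cdkn1b, which encodes p27, of −0.06 ± 0.26. Of 49 tested replication and mitosis genes of 52 listed, 1 rose and 1 fell (4.08% called, against 7.2% of all genes tested), and the median difference was −0.16. Top2a, the topoisomerase of dividing cells, was higher (6532 and 6889 at E10.5, against 4481 and 5257 at E9.5, adjusted p = 0.0201) and Rrm2, a ribonucleotide reductase subunit, lower (7544 and 7887 at E10.5, against 10911 and 10001 at E9.5, adjusted p = 0.00741). Proliferation markers Mki67 (log2 0.05 ± 0.20), Pcna (−0.14 ± 0.18) and Cdk1 (−0.17 ± 0.22) did not pass. Cdkn1c kept its call in all 17 alternatives; Cdkn1a and Top2a kept theirs only without E9.5 replicate 2 among the leave-one-out fits (adjusted p up to 0.152 and 0.197), and Myc and Rrm2 lost theirs without E9.5 replicate 1 or E10.5 replicate 1 (up to 0.0873 and 0.128).

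Connective tissue and matrix genes made up the largest number of calls in any list: of 58 listed, 52 were tested, 21 rose (40.4%, against 5.47% of all genes tested), 0 fell, and the median difference was 0.79. Prrx1, a homeobox gene of limb and connective tissue mesenchyme, read 2571 and 1772 on the E10.5 arrays, against 322 and 477 on the E9.5 arrays (log2 2.44 ± 0.27, limma adjusted p = 0.000495). Sparc, a collagen chaperone, read 1225 and 1034 at E10.5, against 252 and 421 at E9.5 (log2 1.79 ± 0.26, limma adjusted p = 0.00177), though a second, dimmer Sparc probe set had a log2 value of 0.55. Postn, a matricellular protein of mesenchyme, read 552 and 587 at E10.5, against 179 and 189 at E9.5 (log2 1.63 ± 0.24, adjusted p = 0.00206). These genes had signal at both stages and no overlap. Lox, which crosslinks collagen and elastin, read 536 and 206 at E10.5, against 53.7 and 57.5 at E9.5, at least 3.04-fold higher (adjusted p = 0.00292). Among collagens, named after their values were seen, Col6a3 rose by at least 5.71-fold (1106 and 352 at E10.5, against 103 and 95.9 at E9.5, adjusted p = 0.00294). Col3a1 and Col5a1 of the fibril rose by 1.11 ± 0.26 and 0.93 ± 0.22 log2 units (limma adjusted p = 0.0240 and 0.0282), and Col11a1 of cartilage by 2.04 ± 0.43 (adjusted p = 0.0149). A second Col5a1 probe set had a log2 value of 0.43. The chains of type I collagen did not pass (Col1a1 log2 0.67 ± 0.40, Col1a2 0.83 ± 0.29). Proteoglycans were among the calls too: Dcn, which binds collagen fibrils, rose by at least 2.88-fold (adjusted p = 0.00605), Bgn by at least 3.03-fold (0.0103) and Lum by 1.68 ± 0.37 log2 units (0.0190). For many of these genes E10.5 replicate 1 was well above E10.5 replicate 2, as in Lum (906 and 323 at E10.5, against 175 and 163 at E9.5) and Col11a1 (1255 and 487 at E10.5, against 146 and 248 at E9.5). The summed signal of the 52 genes was 84209 and 69969 at E10.5, against 47120 and 55396 at E9.5. Without E9.5 replicate 1 the 21 calls became 9, without E10.5 replicate 1 they became 5, and without E9.5 replicate 2 or E10.5 replicate 2 they became 18; Prrx1, Sparc, Postn, Lox and Col6a3 passed in all 4.

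In the list of integrins, laminins, cadherins and basement membrane genes, 27 of 36 were tested, 4 rose and 1 fell (18.5% called, against 7.2% of all genes), with a median difference of 0.11. Lama2, the laminin chain of the muscle basement membrane, read 421 and 282 on the E10.5 arrays, against 36.2 and 26.2 on the E9.5 arrays, at least 3.15-fold higher (limma adjusted p = 9.78e-05). Vcam1, an adhesion molecule of muscle precursors and endothelium, read 761 and 331 at E10.5, against 13.7 and 52.8 at E9.5, at least 4.59-fold higher (adjusted p = 0.000917). Nid1, which links laminin to collagen IV, read 1559.9 and 919 at E10.5, against 264 and 296 at E9.5 (log2 2.10 ± 0.25, adjusted p = 0.000639). All 3 kept their calls with any 1 array left out. Itga6, the laminin receptor of the early myotome, fell (862 and 997 at E10.5, against 1939 and 2067 at E9.5, log2 −1.11 ± 0.28, adjusted p = 0.0338) but passed in none of the 4 leave-one-out fits (adjusted p up to 0.299). Dsp, the desmosomal plaque protein, was the deepest fall among genes with signal on all 4 arrays: 323 and 511 at E10.5, against 2547 and 2195 at E9.5 (log2 −2.54 ± 0.26, adjusted p = 0.000314, called in all 17 alternatives). Guidance genes gave 3 rises and 0 falls over 29 tested of 42 listed (10.3% higher, against 5.47% of all genes tested). Epha3, an ephrin receptor, read 2034 and 2059.6 at E10.5, against 185 and 623 at E9.5 (log2 2.59 ± 0.45, adjusted p = 0.00561). Unc5c, a netrin receptor, read 897 and 766 at E10.5, against 202 and 251 at E9.5 (log2 1.88 ± 0.21, adjusted p = 0.000472), and Slit2, a repellent ligand, 1979.9 and 2192 at E10.5, against 1063 and 799.8 at E9.5 (log2 1.18 ± 0.28, adjusted p = 0.0266). Unc5c passed with any 1 array left out, Epha3 failed without E10.5 replicate 1 (adjusted p up to 0.102) and Slit2 failed in all 4 such fits (up to 0.147).

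Signalling pathways that pattern the somite were called to different degrees: the shares of the Notch and Wnt lists that passed (8.33% and 6.90%) were near the 7.2% of all genes, and that of the BMP, TGF-beta and activin list was 16.7%. In the Notch list 24 of 28 genes were tested; besides the ligand Dll1, the atypical ligand Dner passed, 276 and 256 at E10.5 against 74.8 and 128 at E9.5 (at least 2.25-fold higher, limma adjusted p = 0.0275), while the target genes Hes1 (log2 0.08 ± 0.62), Hey1 (0.57 ± 0.42) and Heyl (0.55 ± 0.26) did not. In the Wnt list 29 of 48 were tested. The secreted inhibitor Dkk2 rose, reading 448 and 369 at E10.5, against 67.6 and 142 at E9.5 (at least 3.28-fold, adjusted p = 0.00436), and the receptor Fzd7 fell, reading 1026 and 1124 at E10.5, against 2185 and 1674 at E9.5 (log2 −0.83 ± 0.21, adjusted p = 0.0325). The Wnt target Axin2 did not pass (log2 −0.23 ± 0.24). Of 45 listed BMP, TGF-beta and activin genes 30 were tested, 4 rose (13.3%, against 5.47% of all genes tested) and 1, Fst, fell. Tgfb2, the ligand of mesenchyme, read 1987 and 1976 on the E10.5 arrays, against 486 and 535 on the E9.5 arrays (log2 1.96 ± 0.20, adjusted p = 0.000314). Tgfbi, a matrix protein that TGF-beta induces, read 3040.3 and 2382 at E10.5, against 871 and 759.5 at E9.5 (log2 1.73 ± 0.18, adjusted p = 0.000410). The receptor Tgfbr2 read 637 and 449 at E10.5, against 245 and 296 at E9.5 (log2 0.99 ± 0.22, adjusted p = 0.0206). Ligand, receptor and target were all without overlap between stages; Tgfb2 and Tgfbi passed in all 17 alternatives and Tgfbr2 failed without E9.5 replicate 1 or E10.5 replicate 1 (adjusted p up to 0.269). BMP target genes Id1 (log2 −0.26 ± 0.37), Id3 (−0.17 ± 0.28) and Msx1 (−0.31 ± 0.38) did not pass.

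Of 10 tested Hedgehog genes none passed limma's threshold (0%, against 7.2% of all genes tested). At an unadjusted p under 0.05 there was 1, against 1670 of all 7721 genes. The receptor and target Ptch1 read 4527 and 3625 at E10.5, against 5560.4 and 6512 at E9.5 (log2 −0.57 ± 0.17, limma adjusted p = 0.0601). It passed only in fits on the trunk arrays alone. Of 12 tested FGF genes the ligand Fgf9 passed (log2 1.79 ± 0.46, adjusted p = 0.0372), though it lay below the median probe set on all 4 arrays and failed in every leave-one-out fit (adjusted p up to 0.994). Of 14 tested retinoic acid genes the receptor Rxrg passed (log2 2.37 ± 0.49, adjusted p = 0.0135), also below the median on all 4 arrays, and failed without E9.5 replicate 1 or E10.5 replicate 1 (up to 0.994). Of 14 tested sclerotome and tendon genes Tgfbi and Zfhx3, a homeodomain factor, passed (Zfhx3 3418 and 3531 at E10.5, against 1533 and 1842 at E9.5, adjusted p = 0.0139; up to 0.131 with 1 array left out). The sclerotome regulators Pax1 (log2 −0.00 ± 0.41), Pax9 (−0.00 ± 0.33) and Sox9 (0.13 ± 0.38) did not pass. Called shares were 8.33%, 7.14% and 14.3% in the FGF, retinoic acid and sclerotome lists, against 7.2% of all genes tested. Dner and Fzd7 passed without E9.5 replicate 2 but in no other leave-one-out fit (adjusted p up to 0.256 and 0.284), and Dkk2 failed only without E10.5 replicate 1 among these (up to 0.0903).

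Growth genes under genomic imprinting, which are expressed from 1 parental copy, gave 5 rises (21.7%, against 5.47% of all genes tested) and 0 falls over 23 tested of 27 listed, with a median difference of 0.27. Cdkn1c, described above, had the smallest p. Asb4, a ubiquitin ligase subunit, read 3779.8 and 4317 on the E10.5 arrays, against 1124 and 1935 on the E9.5 arrays (log2 1.45 ± 0.22, limma adjusted p = 0.00256). Plagl1, a zinc finger regulator of other imprinted genes, read 9128 and 9999 at E10.5, against 3697 and 6098 at E9.5 (log2 1.01 ± 0.18, adjusted p = 0.00660). Stages were apart in both, with E9.5 replicate 1 the lowest array. Of the IGF and insulin axis 14 of 17 genes were tested and Igf1 and Igfbp2 rose (14.3%, against 5.47% of all genes tested). Igfbp2, a binding protein that modulates IGF action, read 538 and 570.3 at E10.5, against 282 and 235 at E9.5 (log2 1.11 ± 0.21, limma adjusted p = 0.00932). The paralogous ligand Igf2, bright at both stages, read 3657 and 4471 at E10.5, against 2798 and 3049 at E9.5 (log2 0.47 ± 0.14, adjusted p = 0.0734), and the receptor Igf1r did not pass either (log2 0.54 ± 0.43). Asb4 passed with any 1 array left out, Plagl1 failed without either E10.5 array (adjusted p up to 0.0892), and Igfbp2 passed only without E9.5 replicate 1 (up to 0.112).

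Some genes of glucose uptake and of ribosome biogenesis were lower at E10.5. In the hypoxia and glycolysis list 25 of 34 genes were tested, 0 rose and 4 fell (16%, against 1.74% of all genes tested), with a median difference of −0.28. The glucose transporters Slc2a1 and Slc2a3 read 1262 and 1297 and 896 and 1257 on the E10.5 arrays, against 3819.5 and 2471 and 3308 and 2767 on the E9.5 arrays (log2 −1.26 ± 0.23 and −1.51 ± 0.28, limma adjusted p = 0.00614 and 0.00682). Hexokinase Hk2, which traps glucose in the cell, read 854 and 1245 at E10.5, against 1913 and 1796 at E9.5 (log2 −0.85 ± 0.21, adjusted p = 0.0343), and Pgam1 of glycolysis fell by a smaller amount (log2 −0.48 ± 0.13, adjusted p = 0.0393). The hypoxia target Vegfa did not pass (log2 0.02 ± 0.30). Ldhb and Oxct1, above, are not in this list; its lactate dehydrogenase Ldha had a log2 value of −0.70 ± 0.21 (adjusted p = 0.0678). None of 60 tested respiratory chain and ATP synthase genes passed limma's threshold (0%, against 7.2% of all genes tested), and their median difference was 0.02. Of the 60, 4 had an unadjusted p under 0.05, against 1670 of all 7721 genes tested. Of 31 tested ribosome biogenesis genes 0 rose and 7 fell (22.6%, against 1.74% of all genes tested), with a median difference of −0.56 and a summed signal of 47725 and 52623 at E10.5, against 63049 and 66600 at E9.5. Nop2, a methyltransferase of ribosomal RNA, read 281 and 261 at E10.5, against 606 and 628 at E9.5 (log2 −1.19 ± 0.22, adjusted p = 0.00680). The nucleolar proteins Mybbp1a (log2 −0.78 ± 0.16), Gnl3 (−0.72 ± 0.15) and Nop16 (−1.08 ± 0.24) fell as well. Srm, the spermidine synthase, is not in this list and was named after its value was seen. It read 1697 and 1971 at E10.5, against 4777 and 3841 at E9.5 (log2 −1.23 ± 0.15, limma adjusted p = 0.000737). The ribosome list had 0, 4, 0 and 0 calls, and the glycolysis list 0, 4, 0 and 3, when E9.5 replicate 1, E9.5 replicate 2, E10.5 replicate 1 and E10.5 replicate 2 were left out in turn. Pgam1 passed in none of these 4 fits, Hk2 only without E10.5 replicate 2, and Slc2a1 and Slc2a3 without either replicate 2 only. Srm kept its call in all 16 alternatives in which it was tested.

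**Figure D3:**
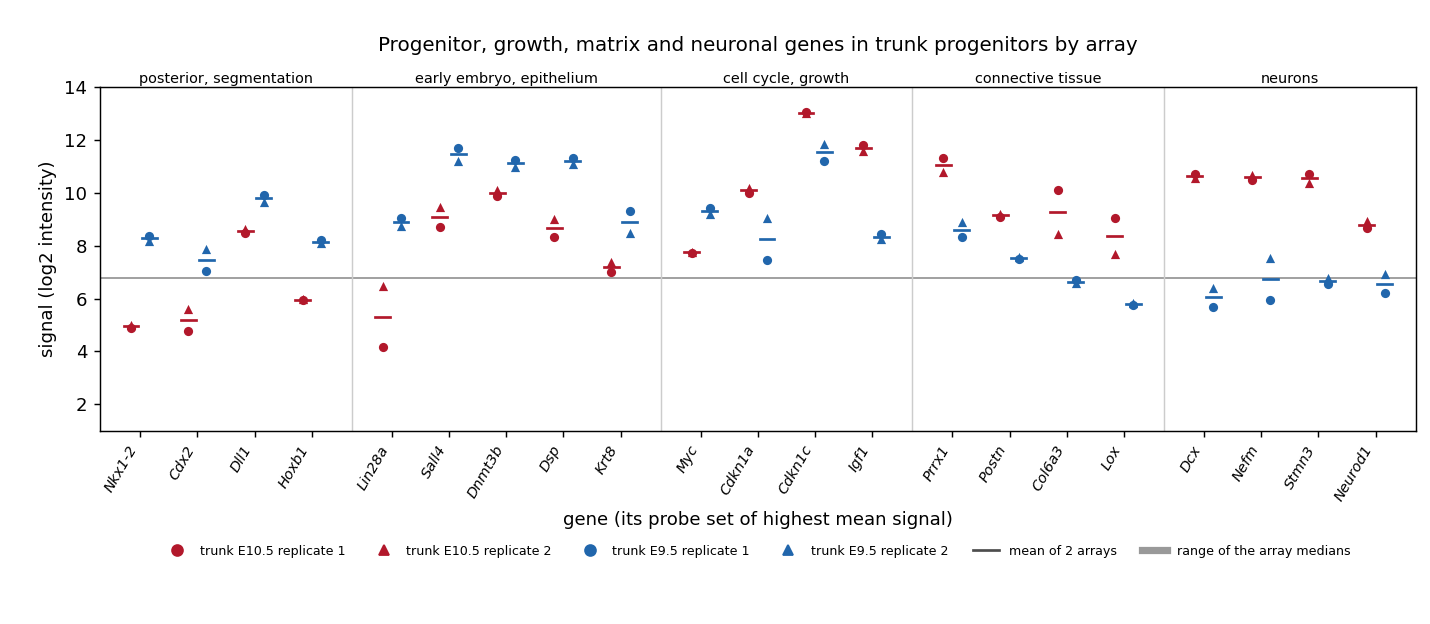
Log2 intensity of progenitor, growth, matrix and neuronal genes on each trunk array (circles are replicate 1, triangles replicate 2, bars the mean of 2 arrays), E10.5 in red to the left of E9.5 in blue. Posterior, early embryo and epithelial genes lie lower at E10.5, the inhibitors Cdkn1a and Cdkn1c, Igf1, matrix and neuronal genes higher, and Col6a3 and Lox differ between the 2 E10.5 arrays.

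Beside the contractile genes, neuronal genes rose in the sorted trunk cells. Of 29 listed neuronal genes 23 were tested, 18 rose (78.3%, against 5.47% of all genes tested) and 0 fell, and the median difference was 2.04. Dcx, a microtubule protein of young neurons, read 1678 and 1509 on the E10.5 arrays, against 51.2 and 85.0 on the E9.5 arrays (log2 4.59 ± 0.33, limma adjusted p = 1.81e-05), at least 14.6-fold higher. Stmn3, a regulator of neuronal microtubules, read 1696 and 1325 at E10.5, against 93.6 and 111 at E9.5 (at least 13.6-fold, adjusted p = 0.000936). Nefm, a neurofilament subunit, read 1425 and 1661 at E10.5, against 61.7 and 188 at E9.5 (at least 10.8-fold, adjusted p = 0.000737). The stages were far apart, and all 3 kept their calls in all 17 alternatives. Nefl and Ina, which also form neuronal filaments, rose by at least 7.73- and 6.67-fold (adjusted p = 0.00121 and 0.00173). Isl1, a homeobox gene of motor and sensory neurons and of heart progenitors, read 1025 and 934 at E10.5, against 181 and 154 at E9.5 (log2 2.55 ± 0.30, adjusted p = 0.000626). Neurod1, a neuronal differentiation factor, read 407 and 489 at E10.5, against 74.2 and 121 at E9.5 (at least 3.90-fold, adjusted p = 0.000893). Defining markers on the same arrays included Tubb3 (172 and 169.8 at E10.5, against 10.8 and 50.6 at E9.5) and Elavl4 (584 and 545 at E10.5, against 109 and 213 at E9.5), both called (adjusted p = 0.00932 and 0.0111). The summed signal of the 23 genes was 15894 and 15058 at E10.5, against 3738 and 4385 at E9.5, and without E9.5 replicate 1, E9.5 replicate 2, E10.5 replicate 1 and E10.5 replicate 2 the calls numbered 9, 16, 8 and 10. Some of these genes, such as Isl1, are also used by cells other than neurons, and the part of neurons among the sorted cells in the results was not tested.

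Markers of other cell types moved with the stages to different degrees. Among neural progenitor genes, 9 of 20 were tested, 2 rose and 1 fell (33.3% called, against 7.2% of all genes tested). Of the 9 differences 3 were positive and 6 negative, with a median of −0.28. The defining markers Pax6 (log2 −0.63) and Hes5 (−0.08) did not pass, and Sox1 and Olig2 stayed below the filter. Fabp7 rose by at least 6.10-fold (limma adjusted p = 0.00363), while Sox2 fell (282 and 411 at E10.5, against 885 and 688 at E9.5, adjusted p = 0.0153). Nes, an intermediate filament also used by myoblasts, rose too (481 and 581 at E10.5, against 205 and 339.6 at E9.5, adjusted p = 0.0448). A second Nes probe set was flat (149 and 202 at E10.5, against 165 and 173 at E9.5, log2 0.04). Of 20 tested endothelial genes 4 rose (20%, against 5.47% of all genes tested), among them Cldn5 and Kdr (433 and 275 at E10.5, against 128 and 113 at E9.5, adjusted p = 0.0370). Their summed signal was 2704 and 2386 at E10.5, against 1646 and 1525 at E9.5, and 7 of the 20, Cdh5 and Tie1 included, stayed below the median on all 4 arrays. Pecam1 read 7.27 and 11.7 at E10.5 and 6.22 and 6.55 at E9.5, and no endothelial call remained without E9.5 replicate 1 or without either E10.5 array. Embryonic globin was bright throughout, Hbb-y at 10789 and 8254 at E10.5, against 10988 and 9895 at E9.5. None of 8 tested erythroid genes passed limma's threshold (0%, against 7.2% of all genes tested). At an unadjusted p under 0.05 there was 1, against 1670 of all 7721 genes. The summed signal of the 8 was 15523 and 11496 at E10.5, against 16939 and 15803 at E9.5. Of 6 tested leukocyte genes Coro1a and Laptm5 rose (33.3%, against 5.47% of all genes tested, limma adjusted p = 0.0176 and 0.0470). The summed signal of the 6 was 638 and 662 at E10.5, against 488 and 410 at E9.5. A second Laptm5 probe set had a log2 value of 0.34. The defining markers Csf1r (log2 0.11) and Adgre1 (0.19) did not pass, while Ptprc and Cd68 stayed below the filter. Of 16 tested epithelial genes 1 fell (6.25%, against 1.74% of all genes tested). This was the keratin Krt8 (128 and 167 at E10.5, against 642 and 355 at E9.5, log2 −1.71 ± 0.30, limma adjusted p = 0.00599). Of the 16 differences 15 were negative, and their median was −0.78, against −0.00 over all genes. The summed signal was 1840 and 2910 at E10.5, against 4382 and 3845 at E9.5. Neural crest genes gave 1 rise, Ngfr (limma adjusted p = 0.0268), over 10 tested (10%, against 5.47% of all genes tested). Of the 10 differences 3 were positive and 7 negative, with a median of −0.19. The defining markers Sox10 (log2 −0.50), Tfap2b (−0.92) and Erbb3 (0.51) did not pass, and Foxd3 stayed below the filter. Of 6 tested cardiac genes 4 rose (66.7%, against 5.47% of all genes tested), all shared with skeletal muscle, neurons or other mesoderm (Isl1, Mef2c, Tnnt2 and Smarcd3). The heart regulator Nkx2-5 read 23.3 and 55.9 at E10.5, against 28.6 and 48.0 at E9.5. Of 13 tested limb and lateral mesoderm genes Prrx1 and Tbx2 rose (15.4%, against 5.47% of all genes tested, limma adjusted p = 0.000495 and 0.0297). The part of these cell types in the results was not tested. Of the calls in this paragraph, none of those for Kdr and Laptm5 held in any leave-one-out fit (adjusted p up to 0.353 and 0.618), those for Cldn5, Nes, Ngfr, Coro1a and Tbx2 held only without E9.5 replicate 2 (up to 0.181, 0.397, 0.235, 0.725 and 0.277), those for Sox2 and Krt8 were lost without E9.5 replicate 1 or E10.5 replicate 1 (up to 0.219 and 0.0989), and that for Fabp7 without E10.5 replicate 1 (up to 0.0516).

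Immediate early and heat shock genes, which respond to tissue dissociation, gave no call over 25 tested members at limma's threshold (0%, against 7.2% of all genes). Of the 25, 2 had an unadjusted p under 0.05, against 1670 of all 7721 genes tested, and the median difference was 0.29. In all, the 36 lists held 688 different tested genes, of which 127 were called, against 7.2% of all 7721 genes tested. The lists were chosen with earlier results of these data known, so this count is not a result about them.

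**Figure D4:**
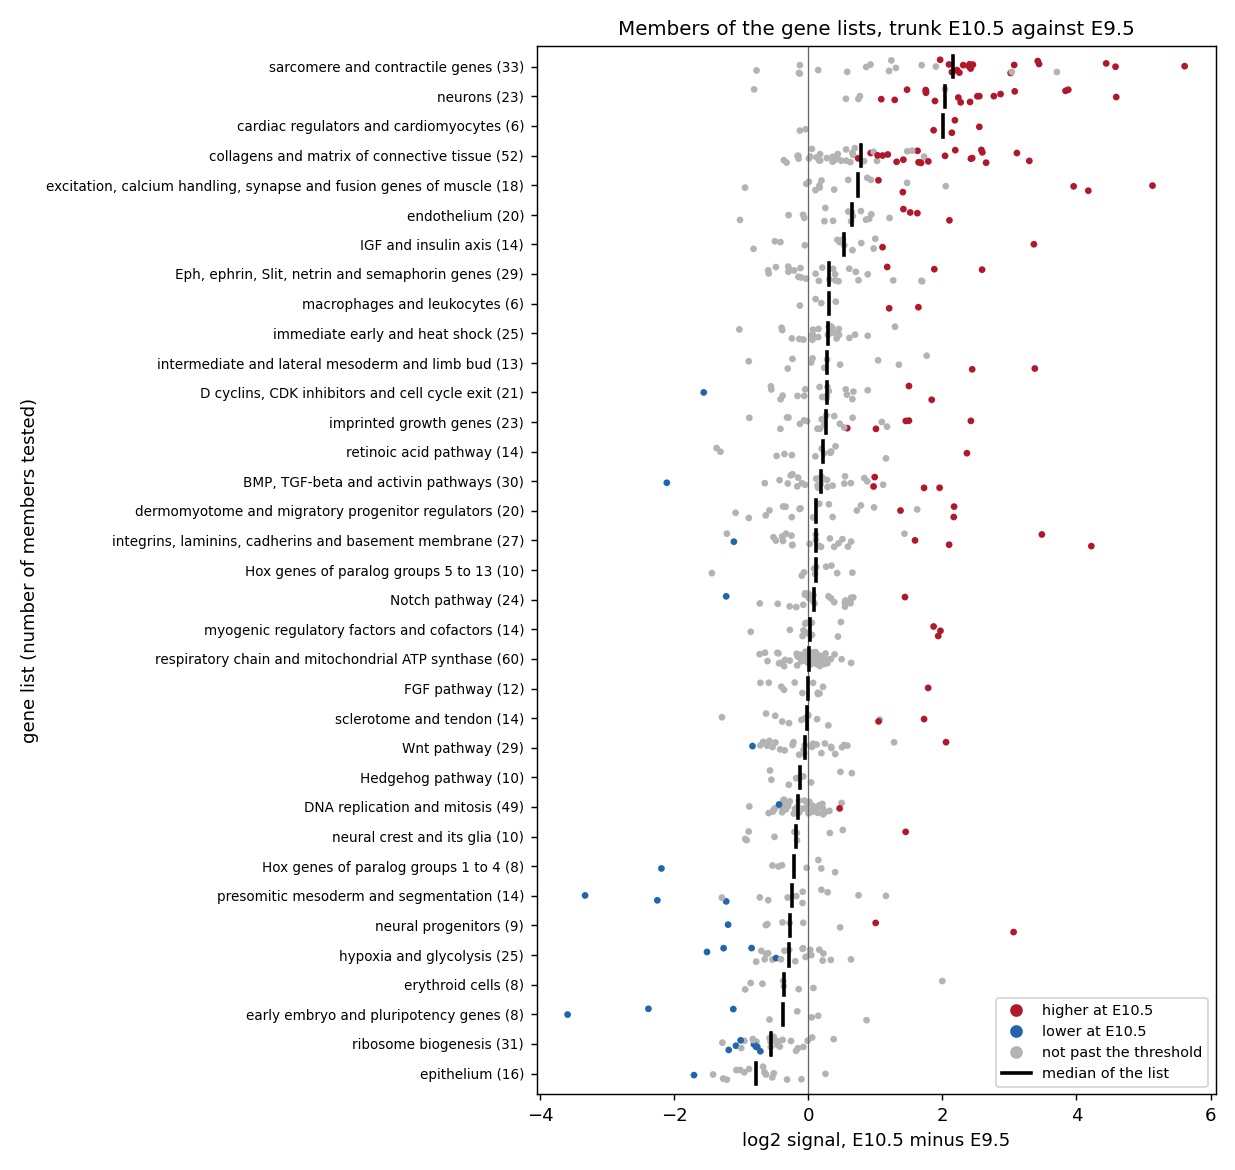
Difference in log2 signal between trunk E10.5 and E9.5 for the tested members of 35 gene lists, sorted by the list's median (black bar), with called members in red (higher) or blue (lower). Sarcomere and neuronal genes have medians of 2.16 and 2.04, collagens and matrix 0.79, while ribosome biogenesis and epithelial genes lie at −0.56 and −0.78.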

How the data were processed

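YFP+ trunk cells of Myf5Cre;RosaYFP embryos were sorted, and per the labels' protocols total RNA was purified with QIAzol, amplified with a MessageAmp kit and transcribed into biotinylated cRNA for an Affymetrix mouse array. The authors deposited a linear intensity for each probe set. Per the submitters' processing notes the tools were Affymetrix Expression Console and MAS5, versions unstated; a later scaling step, if there was one, is recorded in no source used here.

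The log2 of each signal was used as it stands. Probe sets numbered 22690, of which 64 were controls, 691 matched several genes, 1555 matched none, and the other 20380, for 12393 genes, were kept. Testing required a signal above the array median on 2 or more of the 12 arrays. When a gene kept several probe sets, the brightest on average stood for it, leaving 7721 genes. Entrez identifiers tied 20351 probe sets to a RefSeq gene table (29 found no match, 0 symbols changed). Several probe sets remained for 216 called genes; 15 of these had a second one of opposite sign and 0 had one called the opposite way.

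Differences between E10.5 and E9.5 come from limma 3.58.1 in R 4.3.3: a fit of all 6 group means of the series, moderated with a trend on intensity (residual df 6, prior df 5.87), tested two-sided and adjusted by Benjamini and Hochberg's method across the 7721 genes, with 0.05 as the threshold. Errors are standard errors of the log2 difference. A fold reads "at least" where the dimmer stage had an array at or under the median probe set, which was then set to that median. Precision is limited by the number of arrays. Simulated data (5 runs of 7721 genes, 200 of them changed) gave back 51% of 2-fold and 94% of 4-fold changes, and 4.14% and 4.47% of the calls were false. The alternatives changed the normalization, filter, offset, floor, trend, probe set rule or arrays in the fit, added the replicate number as a block, or left out a trunk array.

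By the naming rule, genes come from the 10 strongest differences each way with all 4 arrays above the median, the 10 largest bounds each way, up to 4 called members of smallest p per list, and core myogenic genes; some of those are not described. A called gene outside the rule is marked where it appears, and members that did not pass stand as examples. The 36 textbook gene lists and the members were chosen with earlier results of these data known.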

Additional observations from a re-analysis of the deposited data

How the results depend on the processing

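All 556 called genes kept their sign in each of the 17 alternatives in which they were tested (511 of them with the filter set within the 4 arrays, 444 without probe sets of the suffixes _s, _x and _a, all 556 in the others); where signals were raised to the array median, genes below it on all 4 arrays have no direction of their own. Over the fits that left out 1 of the 4 trunk arrays, the number of genes called ranged from 105 (without E10.5 replicate 1) to 474 (without E9.5 replicate 2), of genes called higher from 92 to 376 and of genes called lower from 13 to 98. Leaving out the 2 E10.5 arrays of low Xist signal (1 of them from the trunk), an alternative chosen after seeing the data, gave 94 calls, 84 higher and 10 lower. Without probe sets of the suffixes _s, _x and _a, 6137 genes remained and 412 were called, 324 higher and 88 lower. Normalization, filter, offset, floor, trend, probe set choice and the arrays in the fit otherwise gave 437 to 617 calls. The replicate numbers of the 2 stages share only a number (correlation of the deviations of same-numbered arrays −0.03), and with the replicate number as a block 486 genes were called, 380 higher and 106 lower. Signals below the median probe set limit the folds: 173 of the 556 calls have only a bound, and 32 lay at or below the median at both stages.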
